A study of Homo sapiens with 23 samples.

Results

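Short-hairpin knockdown of ONECUT2 (OC2) in LNCaP was examined across all genes. LNCaP is an androgen-sensitive cell line made from a human prostate carcinoma. The members were 4 of the 23 RNA-seq libraries analysed, chosen by the hairpin named in their labels: 2 shOC2 libraries (hairpin sh45) and 2 shCon libraries (control hairpin sh202). The cells grew in RPMI-1640 with fetal bovine serum, penicillin and streptomycin, and neither arm carries a drug label. Each arm rests on 1 hairpin, and the labels do not say how the hairpin was delivered or for how long. The same count table also holds 2 libraries of LNCaP with OC2 overexpression and 2 control libraries, which served only as further levels and as a comparison of directions. The hairpin libraries held 20964025 and 21396948 estimated counts in shOC2, against 22578675 and 22615507 in shCon. Of 60683 annotated genes, 16585 had enough counts to be tested.

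ONECUT2 encodes a transcription factor with a cut domain and a homeodomain. It is best known from liver, pancreas and neuron development, and in prostate cancer it has been described as active in tumours that no longer depend on androgen signalling. A short hairpin RNA is trimmed by the Dicer enzyme and loaded into an Argonaute protein, which then lowers transcripts that match the guide strand. Transcripts with a partial match can be lowered as well, so a single hairpin does not separate its intended target from others. LNCaP cells keep a luminal program, in which androgen drives genes such as KLK3 and TMPRSS2, and they divide continuously in serum.

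The comparison of shOC2 with shCon called 8969 of 16585 genes, or 54.1%, at an adjusted p under 0.05 (edgeR quasi-likelihood test with Benjamini-Hochberg adjustment over all genes tested). Of all tested genes 27.3% were called higher in shOC2 (4525) and 26.8% lower (4444), and these shares are the background for every gene list below. At least 2-fold changes were called for 2067 genes, 12.5% of those tested, with 1023 higher (6.17%) and 1044 lower (6.29%). The libraries of the groups did not overlap for 12837 genes (77.4%), with shOC2 above shCon for 39% of tested genes and below it for 38.4%. The median log2 fold change over all tested genes was 0.00, and 4963 called genes (55.3% of them) changed by less than 1.5-fold. Replicates differed by a median of 0.07 on the log2 scale within either group, against 0.28 between the group means. With shOC2 replicate 1 left out, the number called was 5076, and without shOC2 replicate 2 it was 5524. The labels do not say that replicates were separate cultures, so p-values measure only the spread between these libraries. In such bulk RNA, fewer cells of a type and less RNA per cell cannot be told apart.

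Changes were not spread evenly over the genome. On chromosome 6, 456 of 835 tested genes were lower in shOC2 (54.6%) and 110 were higher (13.2%), with a median log2 fold change of -0.37. The medians of 14 of its 16 windows of 10 Mb lay below 0, the lowest at -1.19 between 50 and 60 Mb. On chromosome 12, 343 of 825 genes were lower (41.6%) and 120 higher (14.5%), with a median of -0.21, and 14 of 14 windows lay below 0. On the Y chromosome 18 of 22 genes were lower and 0 were higher, with a median of -1.46. Over the other 21 chromosomes, medians ran from -0.10 to 0.11, and 29.05% of 14689 genes were higher and 24.4% lower. Chromosome 4 had the lowest of those medians, and all 9 of its windows from 100 to 190 Mb lay below 0. Stretches of other chromosomes were shifted too. From 200 to 250 Mb of chromosome 1, window medians ran from -0.34 to -0.12. Window medians were -0.37, -0.49 and -0.33 from 0 to 30 Mb of chromosome 2, and -0.44 and -0.35 from 90 to 110 Mb of chromosome 13. On the X chromosome they ran from -0.66 at 0 to 10 Mb up to 0.48 at 120 to 130 Mb. Against the control libraries of the overexpression experiment, median log2 differences for Y genes at 5 CPM or more were -0.46 in shOC2 and 1.13 in shCon. They were -0.06 in shOC2 and 0.26 in shCon for chromosome 6, and -0.16 in shOC2 and 0.07 in shCon for chromosome 12. Chromosomes with a small difference between the arms also differed from those controls, with 0.41 in shOC2 and 0.39 in shCon for chromosome 21, and -0.24 in shOC2 and -0.36 in shCon for chromosome 22. Each list count below was therefore repeated without chromosomes 6, 12 and Y, an alternative chosen after seeing the data. Those counts still hold genes in the shifted stretches of other chromosomes. Genes named below in such stretches include LEF1, ELOVL6, GUCY1B1, CPE and HMGB2 on chromosome 4, EFNB2 on chromosome 13 and PARP1 on chromosome 1. Whether the shift of these chromosomes and stretches has a part in other changes was not tested.

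**Figure D1:**
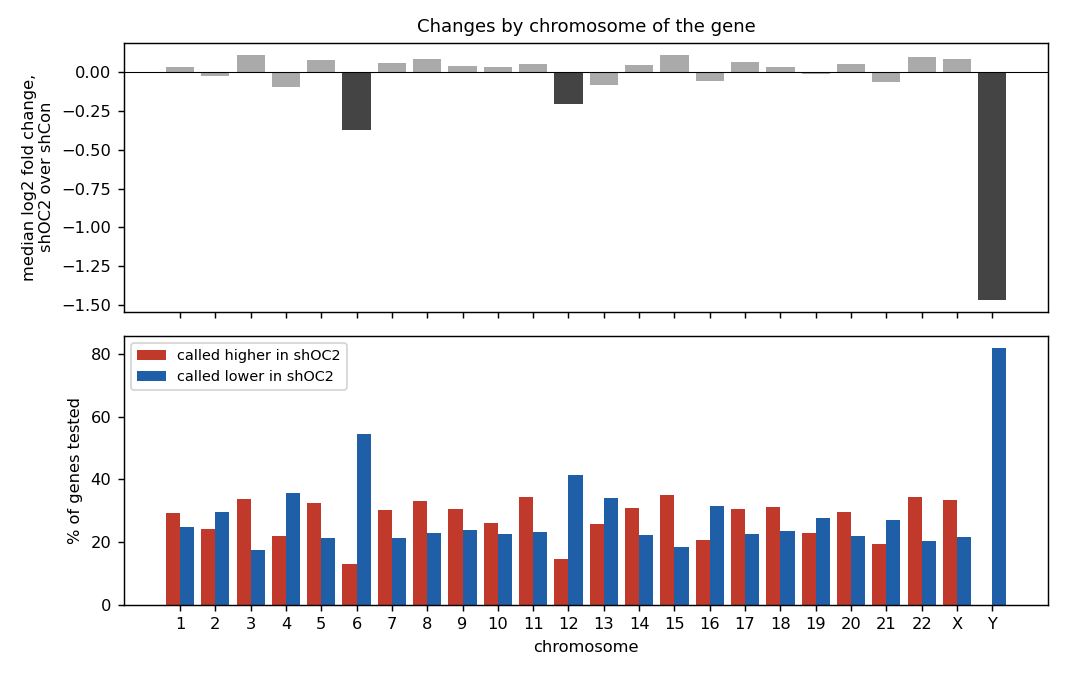
Median log2 fold change of shOC2 over shCon (upper panel) and the percentage of tested genes called higher (red) or lower (blue) in shOC2 (lower panel), by chromosome, with chromosomes 6, 12 and Y in dark grey. Chromosome 6 has 54.6% of its genes lower and chromosome Y has a median of -1.46, while the other 21 chromosomes keep medians between -0.10 and 0.11.

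The luminal identity of the line was present in both arms. All 12 luminal prostate markers were tested, 8 were higher in shOC2 and 3 lower, and together they made up 9613 and 9668 CPM in shOC2, against 7429 and 7682 CPM in shCon. Other cell types left few signs. Of 11 fibroblast and smooth muscle markers 4 were tested, summing to 24.9 and 29.7 CPM in shOC2, against 44.0 and 36.3 CPM in shCon, with DES and FAP at 0 and 2 lower. Of 7 endothelial markers 3 were tested, summing to 4.44 and 4.16 CPM in shOC2, against 9.57 and 12.1 CPM in shCon, with PECAM1 and CDH5 at 0 and VWF lower. Of 7 basal markers 3 were tested, 1 higher and 1 lower, with KRT5 and TP63 at 0. The blood list summed to 759.8 and 729.7 CPM in shOC2, against 193 and 179.9 CPM in shCon, through LCP1 and CD68 alone, the 2 members tested and both higher. PTPRC, CD3E, HBB and TYROBP were at 0. LCP1, which encodes the actin bundler L-plastin, had 752 and 719 CPM in shOC2, against 185 and 172 CPM in shCon.

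ONECUT2 itself (ENSG00000119547, plus strand of chr18:57435685-57491297 in hg38) was measured at 12.8 and 12.8 CPM in shOC2, against 21.5 and 22.2 CPM in shCon (log2 fold change -0.77, SE 0.09, adjusted p = 4.84e-05). Both shOC2 libraries lay below both shCon libraries, and the fitted level in shOC2 was 0.586 of that in shCon, so the transcript remained present. The control libraries of the overexpression experiment stood at 24.6 and 30.7 CPM, above all 4 hairpin libraries. Of the 7 genes in the list of cut-domain genes, 4 were tested, with 1 higher, 3 lower and a median log2 fold change of -0.86. CUX2 was lower at 1.51 and 1.29 CPM in shOC2, against 2.74 and 3.13 CPM in shCon (log2 fold change -1.07, SE 0.25, adjusted p = 0.00488). CUX1, a broadly expressed member of the family, was higher at 109 and 106 CPM in shOC2, against 76.2 and 73.6 CPM in shCon (log2 fold change 0.52, SE 0.05, adjusted p = 2.80e-05). The call of CUX2 was lost without shOC2 replicate 2, with an adjusted p of 0.0658.

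The steepest changes joined genes at zero or near it in one arm and clearly present in the other. In all, 30 called genes averaged at least 5 CPM in shOC2 and under 0.5 CPM in shCon, and 6 showed the opposite. DEPDC1, a gene linked to mitosis, had 32.3 and 31.9 CPM in shOC2, against 0.0871 and 0.0434 CPM in shCon. With 3 counts in both shCon libraries together, the ratio was 492 (95% Clopper-Pearson interval 168 to 2390, counting error only). MEST, an imprinted gene expressed from the paternal copy, had 30.9 and 30.9 CPM in shOC2, against 0.131 and 0.0434 CPM in shCon (log2 fold change 8.38, SE 0.21, adjusted p = 4.23e-09). That fold rests on 3 and 1 counts in shCon, and MEST shares exon bases with COPG2 and MESTIT1. GPD2, the mitochondrial glycerol-3-phosphate dehydrogenase, had 43.9 and 45.8 CPM in shOC2, against 0.479 and 0.434 CPM in shCon (log2 fold change 6.60, SE 0.14, adjusted p = 1.22e-09). These 3 genes were plainly expressed in shOC2 and at background in shCon.

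PARVA, which encodes the focal adhesion protein alpha-parvin, had 24.4 and 21.4 CPM in shOC2, against 0.0435 and 0.0434 CPM in shCon, and 2 counts in shCon gave a ratio of 526 (interval 145 to 4351). C9orf64 had 16.7 and 16.6 CPM in shOC2, against 0 and 0.0434 CPM in shCon, and 1 count in shCon gave a ratio of 766 (interval 137 to 30318). TMSB4X, the actin-binding thymosin, had 44.3 and 42.98 CPM in shOC2, against 0.435 and 0.261 CPM in shCon, and near copies of this gene elsewhere make its count less certain. The transporter gene SLC22A3 had 203 and 209.7 CPM in shOC2, against 0.305 and 0.608 CPM in shCon (log2 fold change 8.80, SE 0.12, adjusted p = 1.14e-10). STEAP4, a metalloreductase just outside that set of 30, had 30.7 and 29.6 CPM in shOC2, against 0.522 and 0.565 CPM in shCon (log2 fold change 5.78, SE 0.15, adjusted p = 4.23e-09). CCL28, a chemokine of mucosal epithelia, had 5.75 and 5.24 CPM in shOC2 and 0 counts in shCon, at least 42.1-fold higher against a floor of 3 counts per library.

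The control libraries of the overexpression experiment divide these 30 genes. There 12 of them averaged at least 5 CPM, 11 stayed under 0.5 CPM and 7 lay between. DEPDC1 stood at 92.7 and 104 CPM in these controls, MEST at 72.2 and 65.1, GPD2 at 96.05 and 95.6, PARVA at 34.6 and 32.9 and C9orf64 at 22.2 and 22.4. For these genes shOC2 lay nearer the other LNCaP control than shCon did. The peptidase gene DPP4 was further apart, at 123 and 135 CPM in the same controls, where it had 5.56 and 6.95 CPM in shOC2, against 0.392 and 0.391 CPM in shCon. SLC22A3, with 0.0484 and 0.134 CPM, and CCL28, with 0 and 0.0445 CPM, were at background in those controls, as in shCon. Over all 1023 genes at least 2-fold higher in shOC2, the control mean lay nearer shCon for 644 (63.0%). The 2 pairs belong to separate experiments of the same table, and a difference of passage or batch between them cannot be told apart from an effect of either hairpin.

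Among the falls, EPHA3, an ephrin receptor, had 0.390 and 0.238 CPM in shOC2, against 34.2 and 35.7 CPM in shCon, and GUCY1B1, the beta subunit of soluble guanylate cyclase, had 0.292 and 0.0952 CPM in shOC2, against 11.8 and 12.4 CPM in shCon. Both were expressed in the other controls, EPHA3 at 20.4 and 23.6 and GUCY1B1 at 21.1 and 24.5 CPM. TOX3, a chromatin protein, had 0.292 and 0.952 CPM in shOC2, against 12.97 and 10.03 CPM in shCon, with 67.4 and 64.8 CPM in the other controls. Cathepsin C (CTSC) had 0.829 and 0.809 CPM in shOC2, against 10.7 and 9.12 CPM in shCon, with 38.7 and 38.1 CPM in the other controls. All 4 were lower in shOC2 than in shCon and in those controls.

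In other falls shCon stood above both shOC2 and the other controls. BCHE, butyrylcholinesterase, had 5.99 and 7.90 CPM in shOC2, against 263 and 206 CPM in shCon (log2 fold change -5.07, SE 0.15, adjusted p = 8.97e-09), with 2.32 and 2.94 CPM in the other controls. SLITRK3, a synaptic adhesion protein, had 2.44 and 3.57 CPM in shOC2, against 82.6 and 71.3 CPM in shCon, with 1.74 and 1.83 CPM there. TMEFF2, a transmembrane protein of the prostate, had 34.8 and 35.2 CPM in shOC2, against 499.5 and 475 CPM in shCon (log2 fold change -3.80, SE 0.06, adjusted p = 1.91e-10), with 1.60 and 1.38 CPM there. TMEFF2 in shOC2 was itself above those controls. The protocadherin PCDH11Y had 1.51 and 1.67 CPM in shOC2, against 34.6 and 34.2 CPM in shCon and its X-linked copy PCDH11X had 0.195 and 0.619 CPM in shOC2, against 4.88 and 5.69 CPM in shCon, and reads of these near-identical genes may be split between them. PEG10, an imprinted gene of retroviral origin, had 3.51 and 4.47 CPM in shOC2, against 42.1 and 38.8 CPM in shCon, and its neighbour SGCE, which shares an exon with it, had 0.390 and 0.428 CPM in shOC2, against 5.44 and 5.25 CPM in shCon. The imprinted zinc finger gene PEG3 had 285 and 259.5 CPM in shOC2, against 665 and 689 CPM in shCon, with 5.91 and 6.23 CPM in the other controls. Both hairpin arms thus stood far above those controls for PEG3, which shares an exon with ZIM2. Over all 1044 genes at least 2-fold lower in shOC2, the control mean lay nearer shCon for 555 (53.2%) and nearer shOC2 for 489 (46.8%). ACKR3, a scavenger receptor for CXCL12, had 12.04 and 12.2 CPM in shOC2, against 169.7 and 159 CPM in shCon and stood at 73.1 and 60.3 CPM in the other controls, between the hairpin arms.

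**Figure D2:**
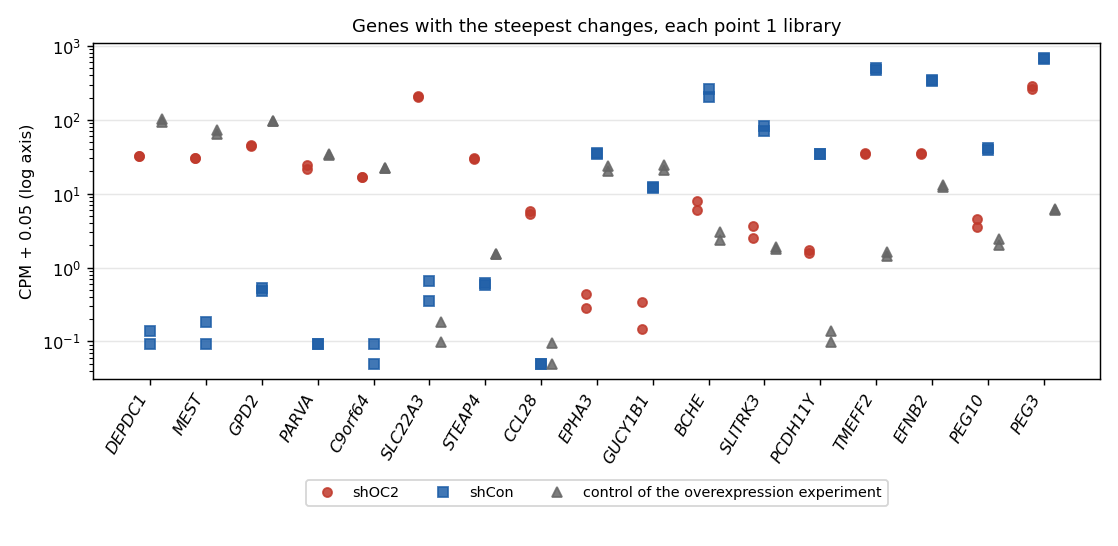
CPM plus 0.05 on a log axis in the 2 shOC2 libraries (red circles), the 2 shCon libraries (blue squares) and the 2 control libraries of the overexpression experiment (grey triangles) for 17 steeply changed genes. The grey points follow shOC2 for DEPDC1, MEST, GPD2, PARVA and C9orf64 and shCon for SLC22A3, CCL28, EPHA3 and GUCY1B1, while for BCHE, SLITRK3, TMEFF2, PEG10 and PEG3 shCon stands above both other groups, with PEG3 far above the grey points in both hairpin arms.

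Genes with high counts moved too. MME, the membrane protease neprilysin, had 723 and 741 CPM in shOC2, against 112 and 117 CPM in shCon (log2 fold change 2.68, SE 0.05, adjusted p = 8.83e-10). The stress-regulated gene NDRG1 had 797 and 677 CPM in shOC2, against 90.7 and 174 CPM in shCon (log2 fold change 2.48, SE 0.23, adjusted p = 1.34e-05). As a ratio, its shCon libraries differed from each other more than its shOC2 libraries did. Laminin gamma 1 (LAMC1) had 954 and 884 CPM in shOC2, against 232 and 229 CPM in shCon, and the fatty acyl-CoA ligase ACSL3 had 1046 and 1031 CPM in shOC2, against 298 and 369 CPM in shCon. Lower at high level was lactate dehydrogenase B (LDHB), on chromosome 12, with 201 and 218 CPM in shOC2, against 620.4 and 597 CPM in shCon. The DNA repair signal enzyme PARP1 was also lower, with 215 and 216 CPM in shOC2, against 573 and 583 CPM in shCon (log2 fold change -1.42, SE 0.05, adjusted p = 2.49e-08). PARP1 lies between 220 and 230 Mb of chromosome 1, where 44.2% of genes were lower. The chromatin protein HMGA1 on chromosome 6 had 172 and 204 CPM in shOC2, against 384 and 402 CPM in shCon and the desaturase FADS2, which shares exons with FADS1 and FEN1, had 512 and 492 CPM in shOC2, against 996 and 1094 CPM in shCon.

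Genes of DNA replication and cell division were lower in shOC2 as groups. Of the 67 genes of G2/M and mitosis, 61 were lower and 1 was higher, with a median log2 fold change of -0.50, against 26.8% lower and 27.3% higher over all tested genes. Away from chromosomes 6, 12 and Y the counts were 56 and 1 of 62. SKA3, whose product holds kinetochores on spindle microtubules, had 15.6 and 16.7 CPM in shOC2, against 40.3 and 43.8 CPM in shCon (log2 fold change -1.38, SE 0.08, adjusted p = 7.00e-07). FOXM1, the transcription factor of mitotic genes, had 141 and 142 CPM in shOC2, against 297 and 331 CPM in shCon (log2 fold change -1.15, SE 0.06, adjusted p = 4.30e-07). It shares an exon with ITFG2. The centromeric histone CENPA had 12.96 and 12.9 CPM in shOC2, against 27.1 and 26.9 CPM in shCon, the checkpoint kinase BUB1 had 43.8 and 45.03 CPM in shOC2, against 90.9 and 88.5 CPM in shCon and the checkpoint kinase TTK had 15.8 and 18.9 CPM in shOC2, against 35.9 and 36.9 CPM in shCon. In all 5 genes the groups did not overlap, as for 77.4% of all tested genes, and these 5 were named for their large falls. FOXM1 lies on chromosome 12 and TTK on chromosome 6. The windows of the others were also often lower. On chromosome 2, 62.5% of genes were lower at 20 to 30 Mb, which holds CENPA, and 42% at 110 to 120 Mb, which holds BUB1. On chromosome 13, 45.8% were lower at 20 to 30 Mb, which holds SKA3. The part of position in these falls was not tested. The change did not reach every member. CDK1, the mitotic kinase, had 213 and 224 CPM in shOC2, against 211 and 212 CPM in shCon (log2 fold change 0.05, SE 0.05, adjusted p = 0.455), and the proliferation marker MKI67 had 132 and 123 CPM in shOC2, against 119 and 115 CPM in shCon (log2 fold change 0.12, SE 0.06, adjusted p = 0.0901). Kinesin KIF22 was the single member called higher (log2 fold change 0.15, SE 0.05, adjusted p = 0.0244), a call lost under DESeq2 (adjusted p = 0.0686) and when any 1 of the 4 libraries was left out (adjusted p 0.0647 to 0.127).

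The list of origin licensing and replication fork genes held 39 lower and 2 higher of 50, with a median of -0.47, and 31 and 2 of 42 away from chromosomes 6, 12 and Y. MCM3, a subunit of the replicative helicase, had 85.6 and 85.4 CPM in shOC2, against 237 and 241 CPM in shCon (log2 fold change -1.48, SE 0.05, adjusted p = 2.31e-08). The primase subunit PRIM2, also on chromosome 6, had 13.8 and 13.99 CPM in shOC2, against 31.7 and 37.3 CPM in shCon. CDT1, which loads the helicase on origins, had 48.7 and 46.3 CPM in shOC2, against 108 and 119 CPM in shCon (log2 fold change -1.25, SE 0.07, adjusted p = 4.22e-07). GINS2, a helicase cofactor, had 28.9 and 28.2 CPM in shOC2, against 53.9 and 55.5 CPM in shCon, and RFC5, a clamp loader subunit, had 39.5 and 37.2 CPM in shOC2, against 73.9 and 79.9 CPM in shCon. These 5 genes, named for their large falls, stood lower in both shOC2 libraries than in either shCon library, as did 38.4% of tested genes. MCM3 and PRIM2 lie between 50 and 60 Mb of chromosome 6, where 82.1% of genes were lower with a median of -1.19. RFC5 lies on chromosome 12. CDT1 and GINS2 lie between 80 and 90 Mb of chromosome 16, where 46.5% of genes were lower with a median of -0.22. The part of position in these falls was not tested either. The members called higher were ORC5, an origin recognition subunit, at 0.55 on the log2 scale, and POLD4, an accessory polymerase subunit, at 0.48.

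Promoters of 5 of these genes are printed here because G2/M and replication promoters share short sequence elements. They are RefSeq windows of 300 bases (250 before and 50 after the gene start, GRCh38.p14), 5′ to 3′ on the gene's strand. Capitals mark TTTGAA (the cell cycle homology element), CCAAT (the NF-Y box) and the E2F forms TTTCGCGC or TTTGGCGC. Each was searched on both strands, so TTCAAA and ATTGG are the other strand of TTTGAA and CCAAT, and none of these elements contains another.
SKA3 (chr13:21176503-21176802, minus strand): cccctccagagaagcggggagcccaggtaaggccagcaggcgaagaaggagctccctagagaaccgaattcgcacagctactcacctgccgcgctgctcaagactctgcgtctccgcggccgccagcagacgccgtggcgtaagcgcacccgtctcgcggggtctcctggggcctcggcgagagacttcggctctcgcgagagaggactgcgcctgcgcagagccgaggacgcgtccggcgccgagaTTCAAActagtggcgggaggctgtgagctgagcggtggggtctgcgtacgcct
CENPA (chr2:26785806-26786105, plus strand): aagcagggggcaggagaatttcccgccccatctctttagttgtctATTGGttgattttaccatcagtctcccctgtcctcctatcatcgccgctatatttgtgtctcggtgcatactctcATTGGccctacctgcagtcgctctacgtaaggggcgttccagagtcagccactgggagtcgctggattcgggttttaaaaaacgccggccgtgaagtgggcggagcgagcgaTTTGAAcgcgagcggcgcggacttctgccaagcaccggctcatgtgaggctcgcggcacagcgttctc
BUB1 (chr2:110678014-110678313, minus strand): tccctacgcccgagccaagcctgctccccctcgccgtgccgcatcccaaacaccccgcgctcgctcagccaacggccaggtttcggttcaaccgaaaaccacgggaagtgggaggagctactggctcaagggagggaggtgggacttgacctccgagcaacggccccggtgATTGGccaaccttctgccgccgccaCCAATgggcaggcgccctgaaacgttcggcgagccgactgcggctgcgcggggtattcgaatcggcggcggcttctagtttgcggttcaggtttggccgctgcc
MCM3 (chr6:52284693-52284992, minus strand): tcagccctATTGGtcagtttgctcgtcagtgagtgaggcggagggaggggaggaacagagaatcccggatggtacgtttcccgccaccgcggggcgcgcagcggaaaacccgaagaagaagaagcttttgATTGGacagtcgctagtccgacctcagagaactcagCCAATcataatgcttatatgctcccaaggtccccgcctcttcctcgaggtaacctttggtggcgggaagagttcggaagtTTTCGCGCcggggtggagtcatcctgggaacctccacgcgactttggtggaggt
CDT1 (chr16:88803539-88803838, plus strand): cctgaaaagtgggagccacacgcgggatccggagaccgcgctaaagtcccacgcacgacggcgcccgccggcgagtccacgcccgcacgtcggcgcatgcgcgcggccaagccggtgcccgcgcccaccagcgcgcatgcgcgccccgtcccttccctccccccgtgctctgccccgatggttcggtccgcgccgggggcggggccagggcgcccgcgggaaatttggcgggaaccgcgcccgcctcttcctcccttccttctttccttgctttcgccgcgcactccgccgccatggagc
SKA3 and CENPA carry TTTGAA near the gene start, and CENPA and BUB1 carry CCAAT. MCM3 holds an E2F element near its start and CCAAT further up. CDT1 holds none of the searched letters in this window, though it holds TTTGGCGG, which differs from TTTGGCGC only in the last letter. Such near forms were not searched.

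Over whole lists, TTTGAA stood in 40 of the 58 promoters found for the 67 genes of G2/M and mitosis (69.0%), and CCAAT stood in 40 as well. Among the 11455 promoters found for tested genes, 9.46% held TTTGAA and 37.0% held CCAAT. The E2F forms stood in 10 of 43 replication promoters (23.3%), against 2.04% of promoters of tested genes. The letters ATTGAT, a form bound by ONECUT factors, stood in 6.41% of 655 promoters of genes at least 2-fold higher in shOC2 and in 4.28% of 654 promoters of genes at least 2-fold lower. The same letters stood in 3.21% of promoters of tested genes and in 6.40% of all 27305 promoters in the table. They stood in 7 of 35 promoters of the replication-dependent histones described below (20%), and 25 of those genes were at least 2-fold higher. ATCGAT, another such form, stood in 0.61% of promoters of the higher genes, 1.07% of the lower genes and 0.75% of tested genes. These are matches of letters in a short window.

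**Figure D3:**
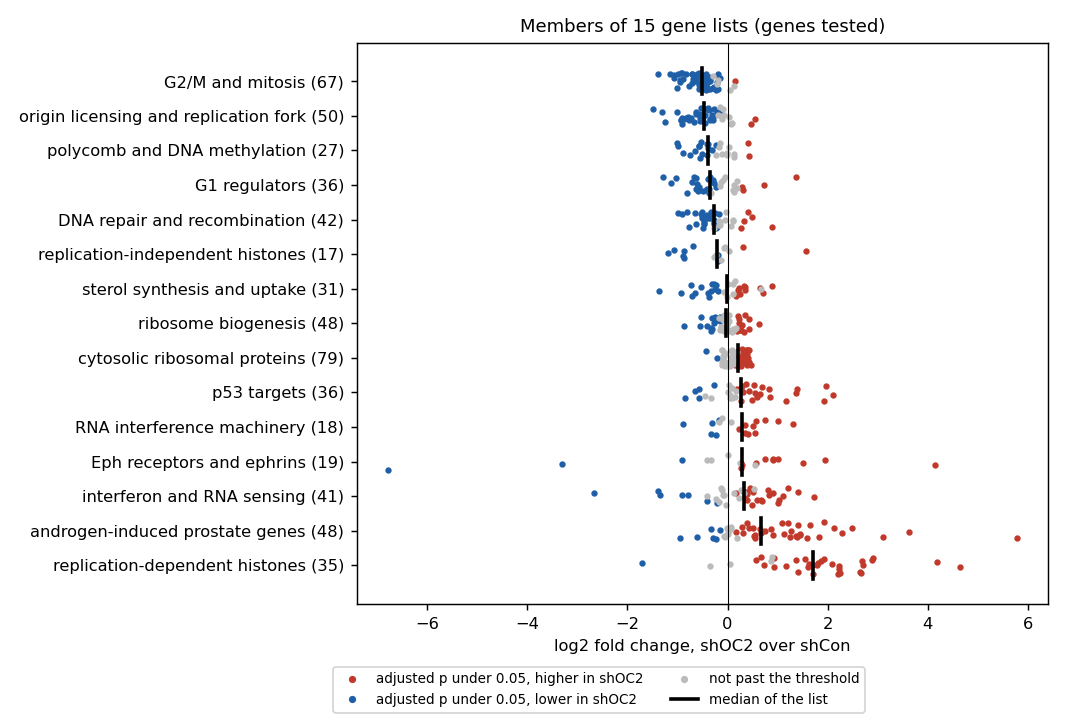
Log2 fold change of shOC2 over shCon for each tested member of 15 gene lists, with the number tested in brackets, red and blue points for members called higher and lower, grey points for the rest, and a black bar at the list median. G2/M genes (median -0.50) and replication genes (-0.47) lie left of 0, while androgen-induced genes (0.66) and replication-dependent histones (1.71) lie right of it.

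The supply of nucleotides and one-carbon units moved less, with 16 lower and 4 higher of 30 and a median of -0.17. Thymidylate synthase (TYMS) had 109 and 111 CPM in shOC2, against 178 and 184 CPM in shCon, and the serine synthesis enzyme PHGDH had 229 and 232 CPM in shOC2, against 400.4 and 419 CPM in shCon, both lower. IMPDH2, of guanine nucleotide synthesis, was higher by 0.46 on the log2 scale. TYMS shares exon bases with ENOSF1. When shOC2 replicate 1 was left out, the number lower in this list was 9, and without shOC2 replicate 2 it was 10.

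DNA repair and recombination genes were lower for 27 of 42 and higher for 5, with a median of -0.27 (14 lower and 3 higher without shOC2 replicate 1, and 17 lower without shOC2 replicate 2). The strand exchange helper RAD54L had 31.8 and 29.9 CPM in shOC2, against 60.9 and 61.6 CPM in shCon and the Fanconi anaemia gene FANCA had 31.6 and 31.7 CPM in shOC2, against 58.9 and 60.3 CPM in shCon. ATM, the kinase that signals double-strand breaks, went the other way at 30.1 and 25.6 CPM in shOC2, against 16.6 and 13.5 CPM in shCon (log2 fold change 0.88, SE 0.12, adjusted p = 1.40e-04). It shares exons with NPAT and C11orf65. In the polycomb and DNA methylation list 16 of 27 were lower and 2 higher, with a median of -0.39. UHRF1, which guides methylation of newly copied DNA, had 39.4 and 39.9 CPM in shOC2, against 69.5 and 77.9 CPM in shCon, and HMGB2, a chromatin protein of dividing cells, had 68.5 and 85.2 CPM in shOC2, against 143 and 166 CPM in shCon.

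G1 regulators were lower for 22 of 36 and higher for 4, with a median of -0.36 (12 lower without shOC2 replicate 1). E2F1, the activator of S-phase genes, had 86.1 and 91.7 CPM in shOC2, against 139 and 151 CPM in shCon (log2 fold change -0.71, SE 0.06, adjusted p = 9.89e-06), and MYBL2, which acts with it, had 117 and 123 CPM in shOC2, against 238 and 254 CPM in shCon. The inhibitors of the cyclin-dependent kinases split. CDKN2C had 16.9 and 17.04 CPM in shOC2, against 38.3 and 44.6 CPM in shCon and CDKN2A had 20.2 and 21.99 CPM in shOC2, against 46.7 and 45.9 CPM in shCon, both lower. CDKN1A, the p21 inhibitor, was higher at 444 and 463 CPM in shOC2, against 183 and 171 CPM in shCon (log2 fold change 1.36, SE 0.05, adjusted p = 7.93e-08). It was also higher than in the other controls, which had 185 and 162 CPM. Cyclin D1 (CCND1) was higher by 0.31 on the log2 scale.

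Among 36 p53 targets 21 were higher and 5 lower, with a median of 0.27, and away from chromosomes 6, 12 and Y the counts were 16 and 3 of 28. The stress protein gene TP53INP1 had 420.4 and 385 CPM in shOC2, against 97.1 and 90.2 CPM in shCon (log2 fold change 2.11, SE 0.06, adjusted p = 1.03e-08), the RNA-binding protein gene ZMAT3 had 76.96 and 72.6 CPM in shOC2, against 19.3 and 19.2 CPM in shCon (log2 fold change 1.96, SE 0.07, adjusted p = 2.27e-08) and SPATA18, of mitochondrial quality control, had 22.3 and 22.4 CPM in shOC2, against 5.27 and 6.51 CPM in shCon (log2 fold change 1.92, SE 0.12, adjusted p = 9.99e-07). For these 3 genes both shOC2 libraries stood above the other controls as well, which had 97.1 and 103 CPM of TP53INP1, 25.4 and 24.2 of ZMAT3 and 11.5 and 10.1 of SPATA18. The list did not move as a block. The death gene BBC3 had 4.19 and 5.52 CPM in shOC2, against 8.79 and 8.73 CPM in shCon, the Akt inhibitor PHLDA3 had 52.00 and 53.8 CPM in shOC2, against 87.3 and 79.4 CPM in shCon and the secreted stress factor GDF15 had 1196 and 1236 CPM in shOC2, against 1980.0 and 1609 CPM in shCon, all lower. For GDF15 the adjusted p was 0.0859 without shOC2 replicate 1 and 0.0714 without shOC2 replicate 2. The number lower in the list was 3 with either shOC2 replicate left out.

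Replication-dependent histones, whose transcripts are made in S phase and end in a stem-loop in place of a poly(A) tail, went against the replication genes. Of 35 tested, 30 were higher in shOC2 and 1 lower, with a median of 1.71. Summed, they made up 998 and 905 CPM in shOC2, against 224 and 237 CPM in shCon. H1-2, a linker histone, had 149 and 156 CPM in shOC2, against 22.2 and 24.9 CPM in shCon (log2 fold change 2.70, SE 0.07, adjusted p = 4.27e-09), H1-4 had 2.53 and 2.43 CPM in shOC2, against 0.131 and 0.130 CPM in shCon and H2AC7 had 2.05 and 1.48 CPM in shOC2, against 0 and 0.130 CPM in shCon. H3C1 was the single member called lower, with 0.292 and 0.143 CPM in shOC2, against 0.653 and 0.782 CPM in shCon, and it lost that call when any 1 of the 4 libraries was left out (adjusted p 0.0539 to 0.134). Histone genes are near-identical copies, so the values of single members are uncertain. Most lie on chromosome 6, and away from chromosomes 6, 12 and Y 4 of 5 were higher. The promoter of H1-4 shows the CCAAT box (capitals) that 30 of the 35 tested histone genes carry in this window (85.7%), where 37.0% of promoters of tested genes do.
H1-4 (chr6:26156079-26156378, plus strand): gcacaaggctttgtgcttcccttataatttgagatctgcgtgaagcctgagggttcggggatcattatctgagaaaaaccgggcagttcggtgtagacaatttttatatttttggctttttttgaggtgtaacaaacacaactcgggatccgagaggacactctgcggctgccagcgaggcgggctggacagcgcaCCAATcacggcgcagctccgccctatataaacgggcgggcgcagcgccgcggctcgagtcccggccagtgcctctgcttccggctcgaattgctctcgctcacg
The E2F forms stood in 10 of the 35 histone promoters (28.6%) and not in that of H1-4.

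The summed level of these histones was 200.3 and 202 CPM in cells with OC2 overexpression, against 809.7 and 818 CPM in their controls, so shOC2 stood near those controls and shCon near the overexpressing cells. Replication-independent histones and histone mRNA factors, most of them with polyadenylated transcripts, summed to 2415 and 2497 CPM in shOC2, against 3199 and 3301 CPM in shCon. Of 17 tested 9 were lower and 2 higher, and H2AX, the variant marked at DNA breaks, was lower with 272 and 285 CPM in shOC2, against 482 and 556 CPM in shCon. Other RNAs without a tail were set beside them, in a list added after the values were seen. Of 8 such small RNAs tested 7 were higher and 0 lower, and their sum was 167 and 129 CPM in shOC2, against 13.4 and 31.4 CPM in shCon. RN7SK, a regulator of transcription elongation, had 48.01 and 31.5 CPM in shOC2, against 0.827 and 0.912 CPM in shCon. The other controls had 12.5 and 18.3 CPM of the same 8 RNAs, so this sum set shOC2 apart while the histone sum did not. The labels give the library kit only as standard, and the part of tail-dependent capture in the histone difference was not tested.

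**Figure D4:**
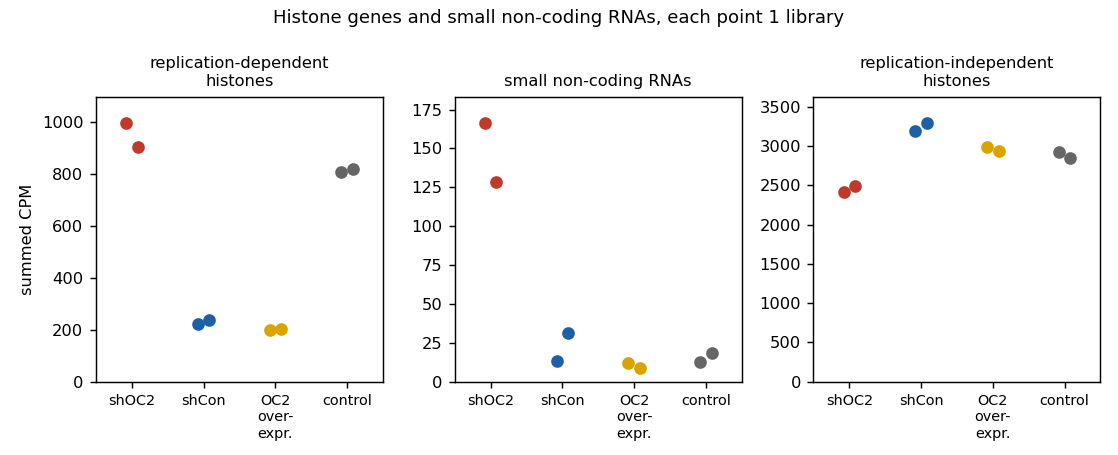
Summed CPM of 35 replication-dependent histones, 8 small non-coding RNAs and 17 replication-independent histones and histone factors in the 2 libraries of each group of the table. Replication-dependent histones reach 998 and 905 CPM in shOC2 and lie at 224 and 237 CPM in shCon, and the small RNAs are highest in shOC2 at 167 and 129 CPM.

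Genes known to be induced by androgen were mostly higher. Of 48 tested, 34 were higher and 6 lower, with a median of 0.66, and 20 were at least 2-fold higher and 0 at least 2-fold lower. Away from chromosomes 6, 12 and Y the counts were 31 and 3 of 40. KLK3, which encodes prostate-specific antigen, had 3016 and 3057 CPM in shOC2, against 1869 and 1983 CPM in shCon (log2 fold change 0.66, SE 0.05, adjusted p = 5.38e-06), and its neighbour KLK2 had 610.0 and 614 CPM in shOC2, against 312 and 361 CPM in shCon (log2 fold change 0.86, SE 0.07, adjusted p = 4.81e-06). The ion channel gene TRPM8 had 163 and 146 CPM in shOC2, against 34.3 and 36.5 CPM in shCon (log2 fold change 2.13, SE 0.07, adjusted p = 2.21e-08), the ELL-associated factor EAF2 had 22.4 and 23.5 CPM in shOC2, against 1.92 and 1.78 CPM in shCon and prostatic acid phosphatase (ACP3) had 24.3 and 25.7 CPM in shOC2, against 5.40 and 4.82 CPM in shCon. TMPRSS2, a serine protease, was higher by 0.42 on the log2 scale. KLK3 and KLK2 in shOC2 were close to the other controls, at 3222 and 3103 CPM for KLK3 and 524 and 533 CPM for KLK2. TRPM8 and EAF2 exceeded them, at 52.3 and 50.8 CPM for TRPM8 and 4.65 and 4.36 CPM for EAF2.

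Other members of the list fell. GNMT, glycine N-methyltransferase, had 8.63 and 9.23 CPM in shOC2, against 16.98 and 17.7 CPM in shCon, the kinase CAMKK2 had 107 and 103 CPM in shOC2, against 155 and 166 CPM in shCon and KLK4 had 198 and 189 CPM in shOC2, against 245 and 243 CPM in shCon. GNMT lies on chromosome 6 and CAMKK2 on chromosome 12. The lineage factors FOXA1 and HOXB13 were lower by modest amounts, at 520.0 and 509.9 CPM in shOC2, against 614 and 639 CPM in shCon, for FOXA1, and at 378 and 389 CPM in shOC2, against 501 and 516 CPM in shCon, for HOXB13. FOLH1, prostate-specific membrane antigen, had 737 and 778 CPM in shOC2, against 963 and 887 CPM in shCon (log2 fold change -0.29, SE 0.06, adjusted p = 0.00201), a call lost without shOC2 replicate 1 (adjusted p = 0.0921) or 2 (0.0538). Of 22 androgen-repressed genes 8 were higher and 8 lower, with a median of 0.10. Of 22 surface targets of prostate cancer therapy 9 were higher and 3 lower, with a median of 0.27.

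**Figure D5:**
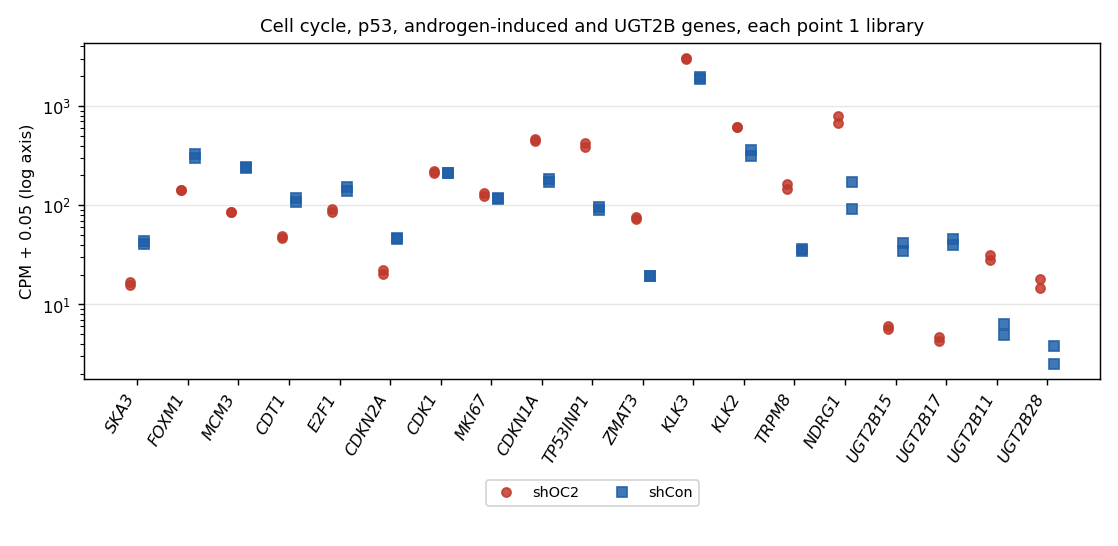
CPM plus 0.05 on a log axis in the 2 shOC2 libraries (red circles) and the 2 shCon libraries (blue squares) for 19 genes of the cell cycle, p53, androgen-induced and UGT2B groups. SKA3 to CDKN2A lie lower in shOC2, CDK1 and MKI67 lie level, CDKN1A to NDRG1 lie higher, and the UGT2B genes split into a pair that is lower and a pair that is higher.

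The enzymes that attach glucuronic acid to androgens split within one cluster on chromosome 4. UGT2B15 had 5.99 and 5.66 CPM in shOC2, against 41.6 and 34.7 CPM in shCon (log2 fold change -2.71, SE 0.12, adjusted p = 1.31e-07) and UGT2B17 had 4.24 and 4.62 CPM in shOC2, against 45.98 and 39.8 CPM in shCon (log2 fold change -3.27, SE 0.11, adjusted p = 2.71e-08). UGT2B11 had 31.6 and 27.8 CPM in shOC2, against 4.83 and 6.25 CPM in shCon (log2 fold change 2.42, SE 0.13, adjusted p = 4.20e-07) and UGT2B28 had 18.2 and 14.7 CPM in shOC2, against 2.48 and 3.78 CPM in shCon (log2 fold change 2.39, SE 0.19, adjusted p = 4.77e-06). The first 2 genes were lower and the others higher, with no overlap between the arms, as for 77.4% of all tested genes. Reads of these close copies may be split between them. In the other controls all 4 stayed under 3 CPM. UGDH, which makes the sugar donor, was lower at 57.3 and 58.1 CPM in shOC2, against 84.9 and 80.4 CPM in shCon. Of 12 tested genes of glucuronidation 6 were lower and 3 higher, with a median of -0.77.

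In steroid synthesis and conversion 12 of 26 were higher and 9 lower, with a median of 0.14. HSD3B1, which turns adrenal precursors into potent androgens, was at 1.02 and 1.43 CPM in shOC2 and 0 counts in shCon, at least 9.40-fold higher against the floor of 3 counts per library. HSD11B2, which inactivates cortisol, had 129 and 126 CPM in shOC2, against 38.1 and 39.4 CPM in shCon (log2 fold change 1.72, SE 0.06, adjusted p = 2.18e-08). The AKR1C aldo-keto reductases were lower. AKR1C1 had 2.39 and 2.24 CPM in shOC2, against 7.40 and 6.64 CPM in shCon, AKR1C2 had 1.85 and 2.09 CPM in shOC2, against 6.66 and 5.73 CPM in shCon and AKR1C3 had 0.487 and 0.238 CPM in shOC2, against 1.74 and 1.35 CPM in shCon, a set of close copies at low level. AKR1D1, a reductase of steroid breakdown, was higher at 0.926 and 0.762 CPM in shOC2, against 0.0871 and 0.217 CPM in shCon (log2 fold change 2.43, SE 0.54, adjusted p = 0.00355), a call lost without shOC2 replicate 1 (adjusted p = 0.0735) or 2 (0.0541). The AKR1C3 call was lost without shOC2 replicate 2 (adjusted p = 0.0565).

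Neurosecretory and synaptic genes were mixed. Of 52, 25 were tested, 12 higher and 6 lower, with a median of 0.14 (3 lower without shOC2 replicate 1). SYT4, a vesicle calcium sensor, had 196 and 210.5 CPM in shOC2, against 8.36 and 7.38 CPM in shCon (log2 fold change 4.69, SE 0.08, adjusted p = 3.24e-10). MAP2, a microtubule protein of neurons, had 28.4 and 24.8 CPM in shOC2, against 1.39 and 1.35 CPM in shCon (log2 fold change 4.27, SE 0.14, adjusted p = 2.31e-08). Dopa decarboxylase (DDC) had 58.7 and 64.97 CPM in shOC2, against 3.48 and 3.69 CPM in shCon. DDC stood at 57.7 and 57.3 CPM in the other controls, near shOC2 and above shCon. SYT4 and MAP2 were higher in shOC2 than in those controls, which had at most 50.003 CPM of SYT4 and 8.28 of MAP2. Carboxypeptidase E (CPE) had 29.2 and 29.8 CPM in shOC2, against 63.04 and 64.8 CPM in shCon and the neurofilament gene NEFL had 4.34 and 4.76 CPM in shOC2, against 10.1 and 8.77 CPM in shCon, both lower. REST, a repressor of neuronal genes, was higher by 0.53 on the log2 scale.

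Prostate lineage transcription factors as a list held 8 higher and 6 lower of 19, with a median of 0.03 (3 lower with either shOC2 replicate left out). KLF5, a factor of basal and intestinal epithelia, had 17.6 and 18.99 CPM in shOC2, against 2.22 and 2.61 CPM in shCon (log2 fold change 2.92, SE 0.13, adjusted p = 1.75e-07). HNF4G, a factor of gut and liver, had 0.0487 and 0.0952 CPM in shOC2, against 1.35 and 0.478 CPM in shCon and rested on 3 counts in shOC2, so it was 12.6-fold lower with a counting interval of 4.04 to 63.7. It passed the threshold with all 4 libraries but not without shOC2 replicate 1 (adjusted p = 0.136) or 2 (0.109).

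Eph receptors and ephrins guide cells by contact, and 11 of 19 were higher and 3 lower, with a median of 0.29 (7 higher without shOC2 replicate 2). Beside the loss of EPHA3, the ligand gene EFNB2 had 35.5 and 34.03 CPM in shOC2, against 338 and 349.7 CPM in shCon (log2 fold change -3.30, SE 0.06, adjusted p = 3.31e-10), with 13.2 and 12.5 CPM in the other controls. EFNA5, a ligand of the other class, had 242 and 238 CPM in shOC2, against 84.4 and 85.7 CPM in shCon (log2 fold change 1.497, SE 0.05, adjusted p = 2.21e-08) and the receptor gene EPHA2 had 10.6 and 10.6 CPM in shOC2, against 2.96 and 2.56 CPM in shCon. Receptor and ligand genes thus moved in both directions. Among other receptor kinases and growth factor ligands 14 of 31 were higher and 6 lower, with a median of 0.39. The number higher was 6 without shOC2 replicate 1 and 7 without shOC2 replicate 2, and the number lower was 3 without shOC2 replicate 2. IGF1R, the insulin-like growth factor receptor, had 249 and 215 CPM in shOC2, against 44.02 and 56.5 CPM in shCon (log2 fold change 2.21, SE 0.11, adjusted p = 2.57e-07), with 14.3 and 13.1 CPM in the other controls. ERBB3, on chromosome 12, was lower with 134 and 133 CPM in shOC2, against 213 and 219 CPM in shCon. FGFR2 had 0.341 and 0.333 CPM in shOC2, against 1.65 and 1.74 CPM in shCon, lower at a very low level.

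Nitric oxide signals through soluble guanylate cyclase, an enzyme of an alpha and a beta subunit that makes cGMP. The alpha subunit gene GUCY1A1 had 235 and 227 CPM in shOC2, against 147 and 159 CPM in shCon (log2 fold change 0.59, SE 0.05, adjusted p = 1.45e-05), so it was higher while the beta subunit GUCY1B1 was nearly absent. The cGMP phosphodiesterase PDE10A had 22.5 and 21.6 CPM in shOC2, against 67.4 and 69.96 CPM in shCon and the cGMP-dependent kinase PRKG2 had 9.41 and 8.28 CPM in shOC2, against 1.74 and 2.56 CPM in shCon. PDE10A, on chromosome 6, was lower and PRKG2 higher. Of 14 tested genes of the pathway 5 were higher and 5 lower, with a median of -0.10.

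Epithelial adhesion genes were more often higher, with 17 higher and 5 lower of 32 and a median of 0.24 (11 higher without shOC2 replicate 1; 16 and 3 of 28 away from chromosomes 6, 12 and Y). E-cadherin (CDH1) had 892 and 829 CPM in shOC2, against 565 and 549 CPM in shCon (log2 fold change 0.63, SE 0.05, adjusted p = 9.43e-06), the desmosomal cadherin DSC2 had 297 and 309 CPM in shOC2, against 75.9 and 88.6 CPM in shCon and the tight junction protein TJP1 had 317 and 292 CPM in shOC2, against 137 and 137 CPM in shCon. Mesenchymal genes showed no common direction, with 8 higher and 6 lower of 22 and a median of 0.09 (2 lower with either shOC2 replicate left out). Vimentin (VIM) had 3.75 and 4.05 CPM in shOC2, against 25.9 and 30.9 CPM in shCon (log2 fold change -2.86, SE 0.13, adjusted p = 1.63e-07) and QKI, an RNA-binding protein on chromosome 6, had 34.8 and 31.9 CPM in shOC2, against 114 and 115 CPM in shCon. Fibronectin (FN1) with 608 and 499 CPM in shOC2, against 313 and 302 CPM in shCon and caldesmon (CALD1) with 390.2 and 394 CPM in shOC2, against 233 and 232 CPM in shCon were higher. COL1A1 was lower with 20.3 and 26.6 CPM in shOC2, against 36.4 and 30.2 CPM in shCon, a call lost without shOC2 replicate 1 (adjusted p = 0.193) or 2 (0.0514). Of 34 integrin and focal adhesion genes 15 were higher and 9 lower, with a median of 0.15 (4 lower without shOC2 replicate 1 and 5 without shCon replicate 1).

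In metabolism, 19 of 40 genes of fatty acid synthesis and oxidation were higher and 14 lower, with a median of 0.11. Without shOC2 replicate 1 the number higher was 12, and without shOC2 replicate 2 it was also 12, with 7 lower. The elongases diverged. ELOVL7, known as androgen-regulated in prostate cancer, had 319 and 312 CPM in shOC2, against 61.5 and 69.8 CPM in shCon (log2 fold change 2.27, SE 0.06, adjusted p = 8.38e-09) and ELOVL2, of polyunsaturated chains, had 12.1 and 11.8 CPM in shOC2, against 0.827 and 0.782 CPM in shCon, while ELOVL6, which lengthens saturated palmitate, had 20.4 and 24.6 CPM in shOC2, against 107 and 97.5 CPM in shCon (log2 fold change -2.19, SE 0.09, adjusted p = 8.05e-08). AMACR, a racemase used as a prostate cancer marker, had 112 and 109.7 CPM in shOC2, against 28.4 and 30.7 CPM in shCon, with 140.1 and 149.6 CPM in the other controls. Sterol synthesis and uptake was split, with 10 higher and 14 lower of 31 and a median of -0.00. With shOC2 replicate 1 left out, these were 3 higher and 7 lower, without shOC2 replicate 2 they were 6 and 7, and without shCon replicate 1 the number higher was 6.

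Glycolysis and lactate genes were higher for 12 of 26 and lower for 6, with a median of 0.11. SLC16A3, the lactate exporter, had 11.2 and 11.4 CPM in shOC2, against 0.958 and 0.912 CPM in shCon, but stood at 163 and 150.0 CPM in the other controls. LDHA had 1281 and 1359 CPM in shOC2, against 767 and 1048 CPM in shCon, and its call was lost without shOC2 replicate 1 (adjusted p = 0.131) or 2 (0.167). The hypoxia response list held 18 higher and 6 lower of 33, with a median of 0.30. These glycolysis and hypoxia counts depended on single libraries. When shOC2 replicate 1 was left out, they were 5 and 2 for glycolysis and 7 and 1 for hypoxia, and without shOC2 replicate 2 they were 5 and 3 for glycolysis and 5 and 2 for hypoxia.

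Interferon and RNA-sensing genes are a common reaction to double-stranded RNA. Of 41 tested 21 were higher and 7 lower, with a median of 0.32. Without shOC2 replicate 1 these were 12 and 3, and without shOC2 replicate 2 they were 10 and 4. IRF1, an interferon-induced factor, had 16.8 and 15.1 CPM in shOC2, against 6.36 and 5.69 CPM in shCon (log2 fold change 1.40, SE 0.12, adjusted p = 8.10e-06). The antiviral genes OAS3 with 24.9 and 24.1 CPM in shOC2, against 64.5 and 63.96 CPM in shCon, IFITM1 with 0.244 and 0.762 CPM in shOC2, against 4.27 and 2.21 CPM in shCon and MX1 with 2.05 and 2.48 CPM in shOC2, against 4.79 and 3.73 CPM in shCon were lower. The call of IFITM1 was lost without shOC2 replicate 1 (adjusted p = 0.093), and that of MX1 without shOC2 replicate 1 (0.112) or 2 (0.0674). The list therefore did not move as one, and OAS3 lies on chromosome 12, where 41.6% of genes were lower.

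The machinery that handles the hairpin itself was mostly higher, with 10 higher and 5 lower of 18 and a median of 0.29 (3 lower without shOC2 replicate 1, 2 without shOC2 replicate 2, and 2 away from chromosomes 6, 12 and Y). The uridyl transferase TUT7 had 74.1 and 71.8 CPM in shOC2, against 27.5 and 31.4 CPM in shCon, the Argonaute partner TNRC6B had 110.1 and 100.2 CPM in shOC2, against 53.8 and 51.2 CPM in shCon, DICER1 had 101 and 86.5 CPM in shOC2, against 55.1 and 56.97 CPM in shCon and AGO2 had 159.6 and 141 CPM in shOC2, against 103 and 100.1 CPM in shCon. XPO5, the exporter of precursor hairpins on chromosome 6, was lower at 63.3 and 60.6 CPM in shOC2, against 115 and 115 CPM in shCon. Of 23 chemokines and cytokines 10 were higher and 6 lower, with a median of 0.26. CXCL10, an interferon-induced chemokine, had 8.87 and 8.66 CPM in shOC2, against 1.44 and 0.999 CPM in shCon (log2 fold change 2.84, SE 0.20, adjusted p = 2.90e-06), and was at 0.0484 and 0.0445 CPM in the other controls.

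Cytosolic ribosomal protein genes were higher for 51 of 79 and lower for 2, by small amounts, with a median of 0.21 and no member past 2-fold. With shOC2 replicate 1 left out, the number higher was 33, and without shOC2 replicate 2 it was 22. RPS13 had 417 and 438 CPM in shOC2, against 311 and 305 CPM in shCon, and RPL13, 1 of the 2 that were lower, had 1064 and 1066 CPM in shOC2, against 1449 and 1424 CPM in shCon. Ribosome biogenesis genes, with 13 higher and 14 lower of 48 and a median of -0.03, were near the shares of all genes. When shOC2 replicate 1 was left out, these were 5 and 6, without shOC2 replicate 2 they were 7 and 9, and without shCon replicate 1 the number higher was 8. Mitochondrially encoded proteins were called higher for 3 of 13 and lower for 0, with a median of 0.02. Nuclear oxidative phosphorylation genes were higher for 26 of 73 and lower for 16, with a median of 0.07. For the nuclear list these were 9 lower without shOC2 replicate 1, and 17 higher and 10 lower without shOC2 replicate 2.

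Splicing regulators were lower for 14 of 30 and higher for 5, with a median of -0.23 (1 higher without shOC2 replicate 1 and 3 without shOC2 replicate 2). The ATF4 amino acid response was lower for 17 of 39 and higher for 9, with a median of -0.10. Without shOC2 replicate 1 these were 9 and 3, without shOC2 replicate 2 they were 10 and 2, and the number higher was 5 without shCon replicate 1 and 3 without shCon replicate 2. Endoplasmic reticulum chaperones held 12 higher and 8 lower of 28, with a median of 0.03, and zinc and metallothionein genes 7 higher and 4 lower of 15, with a median of 0.26. In the BCL2 family 14 of 27 were higher and 9 lower, with a median of 0.14. With shOC2 replicate 1 left out, these were 7 and 5, and without shOC2 replicate 2 they were 8 and 4. The survival gene BCL2 had 2.44 and 3.52 CPM in shOC2, against 8.66 and 8.51 CPM in shCon (log2 fold change -1.52, SE 0.18, adjusted p = 7.31e-05), lower, and the inhibitor of apoptosis BIRC3 had 47.5 and 48.5 CPM in shOC2, against 12.6 and 10.2 CPM in shCon (log2 fold change 2.07, SE 0.09, adjusted p = 1.64e-07), higher.

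Wnt pathway genes were higher for 7 of 28 and lower for 10, with a median of -0.04. When shOC2 replicate 1 was left out, the number lower was 5, as it was without shOC2 replicate 2, and without shCon replicate 1 it was 6. The ligand WNT5A had 2.49 and 2.14 CPM in shOC2, against 12.5 and 10.9 CPM in shCon (log2 fold change -2.33, SE 0.16, adjusted p = 2.12e-06) and the nuclear factor LEF1 had 1.85 and 1.52 CPM in shOC2, against 11.4 and 11.6 CPM in shCon (log2 fold change -2.77, SE 0.16, adjusted p = 7.82e-07). Both were lower in shOC2, and LEF1 lies between 100 and 110 Mb of chromosome 4, where 64.1% of genes were lower. The part of position in that fall was not tested. LEF1 stood at 9.15 and 8.55 CPM in the other controls, and WNT5A at 2.61 and 2.63 CPM. Imprinted genes had 6 higher and 5 lower of 18, with a median of 0.03. Without shOC2 replicate 2 the number higher was 3, and without shOC2 replicate 1 or shCon replicate 2 the number lower was 3.

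Gene properties moved with the changes as well. Among protein-coding genes, the fifth richest in GC (58.5% to 76.0%) had 39.0% lower and 23.1% higher with a median of -0.12, and the fifth poorest in GC had a median of 0.07. The fifth with the greatest total exon length per gene had 41.0% higher and a median of 0.11. Of 739 long intergenic RNAs 25.4% were lower and 14.5% higher, and of 1093 antisense RNAs 21.9% were lower and 10.9% higher. After the median of protein-coding genes of the same GC and length class was subtracted, an alternative chosen after seeing the data, the medians were -0.52 for G2/M genes, -0.48 for replication genes, 0.30 for p53 targets, 0.65 for androgen-induced genes and 1.75 for replication-dependent histones.

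The knockdown was set beside OC2 overexpression to ask whether the changes ran in opposite directions. In the overexpressing LNCaP pair, which shares no library with the hairpin pair, 10366 of 17046 genes (60.8%) were called against their own control. Of 841 genes at least 2-fold higher in shOC2 and tested in both pairs, 331 were lower with overexpression (39.4%) and 268 were higher (31.9%). Of 930 genes at least 2-fold lower in shOC2, 337 were higher with overexpression (36.2%) and 281 were lower (30.2%). Over all 15602 genes tested in both pairs these shares were 29.8% lower and 29.4% higher. A test of the sum of both effects, which is 0 where they are equal and opposite, called 9754 of 18162 genes (53.7%). It called 74.9% of the genes at least 2-fold higher and 75.3% of those at least 2-fold lower in shOC2, against 57.1% of all genes tested in both pairs. Those genes were chosen for a large knockdown effect, which is itself part of the sum. A larger share was thus built in, and no conclusion is drawn from it.

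Side by side, some genes did oppose. ONECUT2 stood at 333 and 304 CPM with overexpression, against 24.6 and 30.7 CPM in control. PEG10 stood at 558 and 633 CPM with overexpression, against 2.37 and 2.00 CPM in control, and VIM at 91.5 and 89.5 CPM with overexpression, against 7.55 and 9.04 CPM in control. Both were lower in shOC2. KLK3 stood at 1065 and 989.8 CPM with overexpression, against 3222 and 3103 CPM in control, and TRPM8 at 4.18 and 4.50 CPM with overexpression, against 52.3 and 50.8 CPM in control, and both were higher in shOC2. Replication-dependent histones were lower with overexpression for 28 of 35 and higher for 2, with a median of -1.70, where 30 were higher in shOC2 and 1 lower. Among androgen-induced genes 34 of 47 were lower with overexpression and 6 higher, with a median of -0.63, where 31.6% of all genes tested in that pair were higher and 29.3% lower.

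Other genes moved the same way in both pairs. UGT2B11 stood at 325 and 340.3 CPM with overexpression, against 1.16 and 1.96 CPM in control, MAP2 at 37.3 and 44.1 CPM with overexpression, against 6.58 and 8.28 CPM in control, and EPHA2 at 49.03 and 48.05 CPM with overexpression, against 9.34 and 8.46 CPM in control. These 3 genes were higher in both comparisons. GUCY1B1 stood at 4.42 and 4.93 CPM with overexpression, against 21.1 and 24.5 CPM in control, and was lower in both. G2/M and replication genes, mostly lower in shOC2, showed no such shared direction. For G2/M genes the overexpression pair had 24 higher and 20 lower of 67, with a median of 0.09. For replication genes it had 20 higher and 12 lower of 50, with a median of 0.06. Of all genes tested in that pair 31.6% were higher and 29.3% lower. Ribosomal protein genes were higher in both comparisons, with 57 higher and 3 lower of 79 under overexpression.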

How the data were processed

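RNA-seq of LNCaP cells was taken from a deposited table of estimated counts per gene, which the authors made from total RNA. Per the submitters' processing notes, FastQC 0.9.0, Bowtie2 and hg38 were used. The counting tool, and whether it used strand, is not given in the sources used here, and 96.4% of gene IDs belong to GENCODE 29. The deposited estimated counts were rounded to whole numbers. CPM values, which scale each library to the same total, were computed from them for single genes with TMM-scaled library sizes. Levels of single genes in the OC2 overexpression and control libraries use sizes from a fit over all 8 libraries of the table. Summed CPM of markers, histones and small RNAs use plain library totals, so they differ slightly in scale from single genes. CPM is not divided by gene length.

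The comparison used edgeR 4.0.16 in R 4.3.3 (filterByExpr, TMM, quasi-likelihood test, Benjamini-Hochberg threshold 0.05) on 2 shOC2 and 2 shCon libraries. It was tested on simulated data. Alternatives were RLE scaling, library totals, DESeq2 1.42.0, other filters, all 4 groups fitted together, a replicate block and leaving out each library. The block was not the main design, since the replicate numbers carry no stated pairing. Intervals and floors (3 counts) cover counting error only.

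Named genes were ONECUT2 and its family, the 15 steepest changes per direction at 5 CPM or more, the 10 of highest CPM per direction changed at least 2-fold, up to 5 called and 3 uncalled members of each list, and every tested member of lists with at most 12. COL12A1 and CYP1A1 fall outside that rule and, like the list of small RNAs, were chosen after their values were seen. The members and gene lists were chosen with earlier results of these data known. Counts are uncertain where exon bases are shared with another gene, often an antisense RNA, as for ACSL3, AMACR, BBC3, CDH1, CDKN1A, CDKN2A, CENPA, DDC, DICER1, DPP4, EFNB2, ERBB3, FANCA, FOXA1, GINS2, GNMT, HSD11B2, IFITM1, IRF1, LDHB, LEF1, MME, PDE10A, RAD54L, REST, RFC5, SLC16A3, TRPM8, VIM and XPO5. Some items are not reported here.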

Additional observations from a re-analysis of the deposited data

How the results depend on the processing

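The number of genes called in shOC2 against shCon, 8969 with all 4 libraries, ran from 5076 to 7863 when 1 library was left out. The number higher then ran from 2617 to 3953 and the number lower from 2459 to 3916. Leaving out a library leaves 1 in its arm, which is then assumed to vary like the other arm. With all libraries the number called was 8939 with RLE scaling, 8978 with library totals alone (3928 higher and 5050 lower), 6753 with DESeq2, 7122 without a filter on low counts, 8695 with at least 1 CPM in 2 libraries and 8502 with all 4 groups fitted together. Same-numbered libraries of the arms did not deviate together (correlation of deviations -0.06 over 11415 genes), and the replicate block called 8521. For OC2 overexpression the count ran from 8432 to 11256 across alternatives, the highest with the replicate block, and for the sum of both effects from 8599 to 9820. Away from chromosomes 6, 12 and Y, 7922 genes were called and 4 replication-dependent histones were higher. Of 152 called genes named in the text, 139 passed the threshold under each alternative run and 147 under each alternative that kept all libraries, and 0 turned direction. CDK1, not called, stood at -0.0075 on the log2 scale with library totals alone. The log2 fold change of ONECUT2 in shOC2 against shCon stayed between -0.82 and -0.75 and past the threshold in each alternative run, with an adjusted p of up to 0.0216. COL1A1 and LDHA lost their calls without a filter (adjusted p = 0.0804 for COL1A1 and 0.0758 for LDHA), LDHA also under DESeq2 (0.0501), and H3C1 under both (0.149 with DESeq2 and 0.0543 without a filter). These causes were not tested. At 20964025 to 22615507 estimated counts per hairpin library, levels under about 0.5 CPM rest on few counts. Folds of CCL28 and HSD3B1, at 0 in shCon, are given against a floor and those of DEPDC1, PARVA, C9orf64 and HNF4G with counting intervals, while other genes with a low arm, such as MEST, GPD2 and SLC22A3, have fitted folds.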

Other observations

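The 30 genes present in shOC2 and near 0 in shCon also held transport, secretion and growth factor genes not described above. ABCB11, the bile salt export pump of liver, had 7.94 and 9.57 CPM in shOC2, against 0.305 and 0.130 CPM in shCon, with 0.0968 and 0.178 CPM in the controls of the overexpression experiment. MAP1LC3A, an autophagosome protein, had 7.85 and 8.62 CPM in shOC2, against 0.218 and 0.130 CPM in shCon. COL12A1, a fibril-associated collagen on chromosome 6, had 8.24 and 6.28 CPM in shOC2, against 0.305 and 0.217 CPM in shCon. All 3 genes were also near 0 in those other controls. MAP1LC3A was higher with OC2 overexpression too, at 5.46 and 5.07 CPM, against 0.0968 and 0.490 CPM in control.

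CYP1A1, a target of the aryl hydrocarbon receptor, had 7.31 and 6.85 CPM in shOC2, against 0.261 and 0.738 CPM in shCon, and the macrophage growth factor CSF1 had 5.17 and 5.05 CPM in shOC2, against 0.348 and 0.434 CPM in shCon. The controls of the overexpression experiment lay between the arms for both, at 3.24 and 2.58 CPM for CYP1A1 and 0.823 and 0.579 CPM for CSF1. RTL5, an X-linked gene derived from a retrotransposon as PEG10 is, had 14.5 and 13.5 CPM in shOC2, against 0.305 and 0.261 CPM in shCon, and stood at 9.97 and 8.95 CPM in those controls. It moved opposite to PEG10.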
